A study of Mus musculus with 3 samples.

Results

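The SLAM family receptor cluster is a set of 8 genes on mouse chromosome 1, Ly9, Slamf7, Cd48, Slamf1, Cd84, Slamf6, Slamf9 and Slamf8 in chromosome order, out of 21887 protein-coding genes. Accessible regions were taken from 3 deposited ATAC-seq peak lists when they lay in a gene span or within 20 kb of it (build mm10), and each region was counted once, for the nearest of the 8 genes. This gave 72 of 182233 regions at 0 h, 71 of 178055 at 6 h and 80 of 145044 at 72 h. The cluster was chosen by measured values of these libraries, among them the strong regions gained at Cd84 at 72 h. The differences of 72 h from 0 h and from 6 h below are therefore a description without a test and support nothing by themselves.

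ATAC-seq marks open DNA by the cuts of a transposase. The cells were the ECOMG myeloid progenitor line of the mouse, with the genotype FKBP12F36V_NIPBL. This genotype fuses a degron to NIPBL, the cohesin loader, so that the small molecule dTAG leads to breakdown of the protein. All groups shared the degron genotype, GM-CSF and estradiol, and differed in dTAG and time. There was 1 library of 50000 cells for each of 3 groups, 0 h without dTAG, 6 h under dTAG and 72 h under dTAG. No difference therefore has a replicate check, and the effects of dTAG, of time and of the single library cannot be told apart. Where 3 values follow each other below, they are those of 0 h, 6 h and 72 h. The labels do not say whether the line is a single clone.

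SLAM family receptors are immunoglobulin-type surface proteins of blood cells. Most of them bind a copy of themselves on a neighbouring cell, and many signal through tyrosine motifs in the cytoplasmic tail that recruit the adaptors SAP (Sh2d1a) and EAT-2 (Sh2d1b1). Cd48 has a lipid anchor in place of a tail and serves as ligand of Cd244a and Cd2, while Slamf8 and Slamf9 have short tails without these motifs. In the mouse, Slamf1 together with absence of Cd48 marks blood stem cells.

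Values of a region are the authors' fold, the ratio of its summit to the peak caller's background in the same library. Folds were read within a list. To set libraries side by side, overlapping regions of the 3 lists were joined into loci, and each locus found in all 3 lists was ranked by its fold within each library, as a percentile among the same 98083 loci. Folds of the whole lists had a median of 6.80 (0 h), 7.54 (6 h) and 9.37 (72 h) and a mean of 16.3, 18.3 and 23.7, and mean or median folds of genes below stand beside these. The lowest listed fold was 3.02 (0 h), 3.01 (6 h) and 3.12 (72 h). Folds lay on an even grid in each list, and if a fold is summit fragments plus 1 over background plus 1, the lowest listed summit was 3 fragments in each. Absence from a list means only that a locus did not pass the authors' call. Read totals were not used here; by the same reading the background at 72 h was 0.870 times that at 0 h.

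The regions at cell type markers are given beside those near all coding genes, where the ratio of regions between 72 h and 0 h was 0.839. That ratio counts each region once. The totals below count a region for each gene window that holds it, so the 2 measures are not alike. Of 10 myeloid progenitor genes with a promoter window, 9 had a region there at 0 h, 9 at 6 h and 7 at 72 h, and the windows of 12 such genes held 247, 263 and 192 regions, with fewer at 72 h than at 0 h in 8 of the 12. The largest falls among the 12 were those of Prtn3, with 36, 34 and 18 regions, and Elane, with 35, 33 and 19. Both lie on chromosome 10, and a region shared by their windows counts for each. Kit, a stem and progenitor receptor, had 7, 6 and 0 regions. Of 7 neutrophil genes, 6, 6 and 7 promoters had a region, with 76, 81 and 115 regions in their windows and more at 72 h than at 0 h in 6 of the 7. The 5 macrophage genes held 83, 80 and 112 regions, with 2 of 3 promoters listed at each time, and the count at 72 h was above that at 0 h in 2 genes, below it in 2 and equal in 1. Among them Adgre1, the F4/80 antigen, had 21, 21 and 51 regions, Mertk 25, 22 and 30, Cd68 20, 23 and 18, Csf1r 12, 11 and 12 and Marco 5, 3 and 1. The 10 lymphoid genes held 116, 111 and 90, with 0, 1 and 0 of 8 promoters listed, and the 4 mast cell and erythroid genes held 32, 32 and 22, with 1, 0 and 0 of 4. The part of these values in the results for the SLAM genes was not tested.

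A promoter window is the stretch from 250 bases before to 50 bases after a start site. It was matched in RefSeq (GRCm38.p6, the assembly of mm10) for 7 of the 8 genes, and 4 of the 7, those of Cd48, Slamf1, Cd84 and Slamf9, were overlapped by a listed region in each of the 3 libraries. Slamf7, Slamf6 and Slamf8 had no listed region in this window at any time. Over the windows of all coding genes, 54.3% (0 h), 54.4% (6 h) and 51.5% (72 h) had a region. The 4 accessible promoters are shown because the start-site values below come from regions that lie across them. Each is on the plus strand, read 5′ to 3′, and capitals mark matches to the motifs searched. Cd84 lies at chr1:171839447-171839746, Slamf9 at chr1:172475110-172475409, Slamf1 at chr1:171766882-171767181 and Cd48 at chr1:171681742-171682041.
Cd84: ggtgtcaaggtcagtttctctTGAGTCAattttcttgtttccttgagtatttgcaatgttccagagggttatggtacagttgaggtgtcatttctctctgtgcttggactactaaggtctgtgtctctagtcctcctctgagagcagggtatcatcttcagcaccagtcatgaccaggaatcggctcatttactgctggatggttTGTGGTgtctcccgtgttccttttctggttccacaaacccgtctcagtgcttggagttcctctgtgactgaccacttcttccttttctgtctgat
Slamf9: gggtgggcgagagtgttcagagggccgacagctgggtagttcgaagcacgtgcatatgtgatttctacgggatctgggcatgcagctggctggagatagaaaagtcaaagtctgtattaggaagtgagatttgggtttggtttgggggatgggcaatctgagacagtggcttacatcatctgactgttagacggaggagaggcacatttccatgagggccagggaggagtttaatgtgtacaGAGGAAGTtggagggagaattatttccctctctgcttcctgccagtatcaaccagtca
Slamf1: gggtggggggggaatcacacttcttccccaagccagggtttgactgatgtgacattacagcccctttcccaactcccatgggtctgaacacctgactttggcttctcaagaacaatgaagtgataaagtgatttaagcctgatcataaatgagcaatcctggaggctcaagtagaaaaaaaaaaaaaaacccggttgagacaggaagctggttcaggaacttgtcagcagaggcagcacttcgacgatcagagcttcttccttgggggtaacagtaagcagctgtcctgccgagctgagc
Cd48: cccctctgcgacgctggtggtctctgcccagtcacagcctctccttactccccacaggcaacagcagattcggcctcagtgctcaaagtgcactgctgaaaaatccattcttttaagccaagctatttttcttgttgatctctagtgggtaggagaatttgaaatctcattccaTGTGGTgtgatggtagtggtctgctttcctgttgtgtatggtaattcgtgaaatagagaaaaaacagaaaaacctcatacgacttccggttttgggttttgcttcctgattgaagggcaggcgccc

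Motifs searched on both strands were GAGGAAGT (PU.1/ETS), TTGCNNAA (C/EBP), TGANTCA (AP-1), TGTGGT (RUNX), AGGGGGC (a part of the CTCF motif) and the IRF motif. The Cd84 promoter held an AP-1 match that begins at −229 from the start site, a motif found in 7.81% of all 32851 promoter windows, and a RUNX match that begins at −45, a motif found in 16.8%. The Cd48 promoter held a RUNX match at −76. Slamf9 held a PU.1/ETS match at −8, in letters that 3.20% of windows contain. In the Slamf1 window none of the 6 motifs occurred. Among the windows without a listed region, that of Slamf7 held an AP-1 match and that of Slamf8 an AP-1 and an IRF match (3.44% of windows), while none of the 6 occurred in that of Slamf6. None of the 7 windows held the C/EBP letters (10.8% of all windows) or the CTCF letters (10.6%). A match is a description of letters and not a binding site.

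At 72 h the 8 genes held 80 regions, against 72 at 0 h, a ratio of 1.11 (0.798 to 1.55), while the regions within 20 kb of any coding gene stood at 122155 and 145673, a ratio of 0.839. Intervals of ratios are exact 95% limits that treat the counts as independent, and like all intervals here they cover counting error only. The regions of the cluster covered 15.8 kb at 72 h and 13.1 kb at 0 h, with a mean fold of 22.1 in a list of mean 23.7 at 72 h and 14.5 in a list of mean 16.3 at 0 h. The surplus lay at Cd84, and without it the other 7 genes had 58 regions at 72 h, against 61 at 0 h, a ratio of 0.951 (0.652 to 1.39). Among these 7, Slamf7 and Slamf9 held 2 more regions each at 72 h than at 0 h, Cd48 the same number, Ly9 1 fewer, Slamf6 1 fewer, Slamf1 2 fewer and Slamf8 3 fewer.

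**Figure D1:**
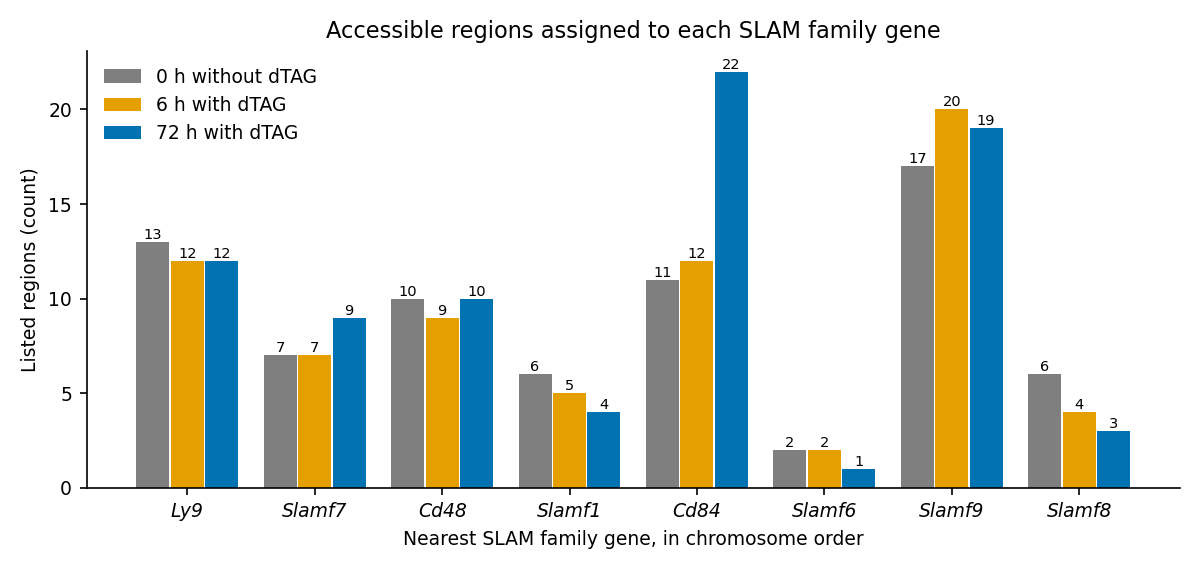
Number of listed accessible regions (y axis) assigned to each of the 8 SLAM family genes (x axis, chromosome order) in the libraries at 0 h, 6 h and 72 h, 1 library each and so without error bars. Cd84 held 11 (0 h), 12 (6 h) and 22 (72 h) regions, and no other gene differed by more than 3 regions between any of the times.

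Counted by the window of each gene, with shared regions counted in each, the number at 72 h was above that at 0 h in 3 of the 8, below it in 4 and equal in 1. Over the 19413 coding genes with a region at either time, 22.4% held more and 65.7% fewer. In Cd84 the difference was 11 regions, a size reached or exceeded by 75 of 21887 coding genes, with or without a region. This place supports nothing, because strong regions gained at Cd84 were among the values by which the cluster was chosen. Span length was not taken into account.

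Of the 80 regions at 72 h, 26 were gained, with no overlap at 0 h. This is 32.5% (exact Clopper-Pearson interval 22.4 to 43.9), beside 22.8% over the whole list. Of the 72 regions at 0 h, 18 or 25% (15.5 to 36.6) were lost, with no overlap at 72 h, beside 40.2% over the whole list. The gained regions had a median fold of 7.42 at 72 h, when the median of the list was 9.37. The lost ones had a median fold of 5.29 at 0 h, when that of the list was 6.80. Cd84 held 12 of the gained and 0 of the lost regions. Without Cd84, 14 of 58 regions or 24.1% (13.9 to 37.2) were gained and 18 of 61 or 29.5% (18.5 to 42.6) were lost.

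Strong regions were those at or above the median −log10 q of their own list. At 72 h 12 of the 51 strong regions were gained, or 23.5% (12.8 to 37.5), beside 7.21% over the list, and 8 of the 12 lay at Cd84. At 0 h 47 regions were strong, and 6 of them were lost, or 12.8% (4.83 to 25.7), beside 15.7%. Of these 6, 3 were nearest to Cd48 and 1 each to Ly9, Slamf6 and Slamf9. Without Cd84, 4 of 33 strong regions at 72 h, or 12.1%, were gained.

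Cd84 is a self-binding receptor of platelets, lymphocytes and myeloid cells. It has the longest span of the 8 genes (chr1:171839697-171890718). Its regions covered 2400 bp (0 h), 2510 bp (6 h) and 5266 bp (72 h), with a mean fold of 23.6, 23.6 and 33.9. The median fold of the Cd84 regions was 14.4, 10.2 and 13.7, so it was not higher at 72 h than at 0 h. These are medians over different sets, of 11, 12 and 22 regions, in lists that themselves differ in median fold. The region across its start site, chr1:171839493-171839799, had a fold of 6.05 (0 h), 6.03 (6 h) and 30.4 (72 h). By the fragment reading above, its summit stood at 38 fragments at 72 h and 7 at 0 h. Its rank was 16.4, 13.6 and 71.4, and the difference of 55.0 points between 72 h and 0 h was the largest among the 51 ranked loci of the cluster. From 1 kb before to 5 kb after the start site, 2 regions were listed at 0 h, 1 at 6 h and 10 at 72 h, with a highest fold of 6.80, 6.03 and 32.8.

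**Figure D2:**
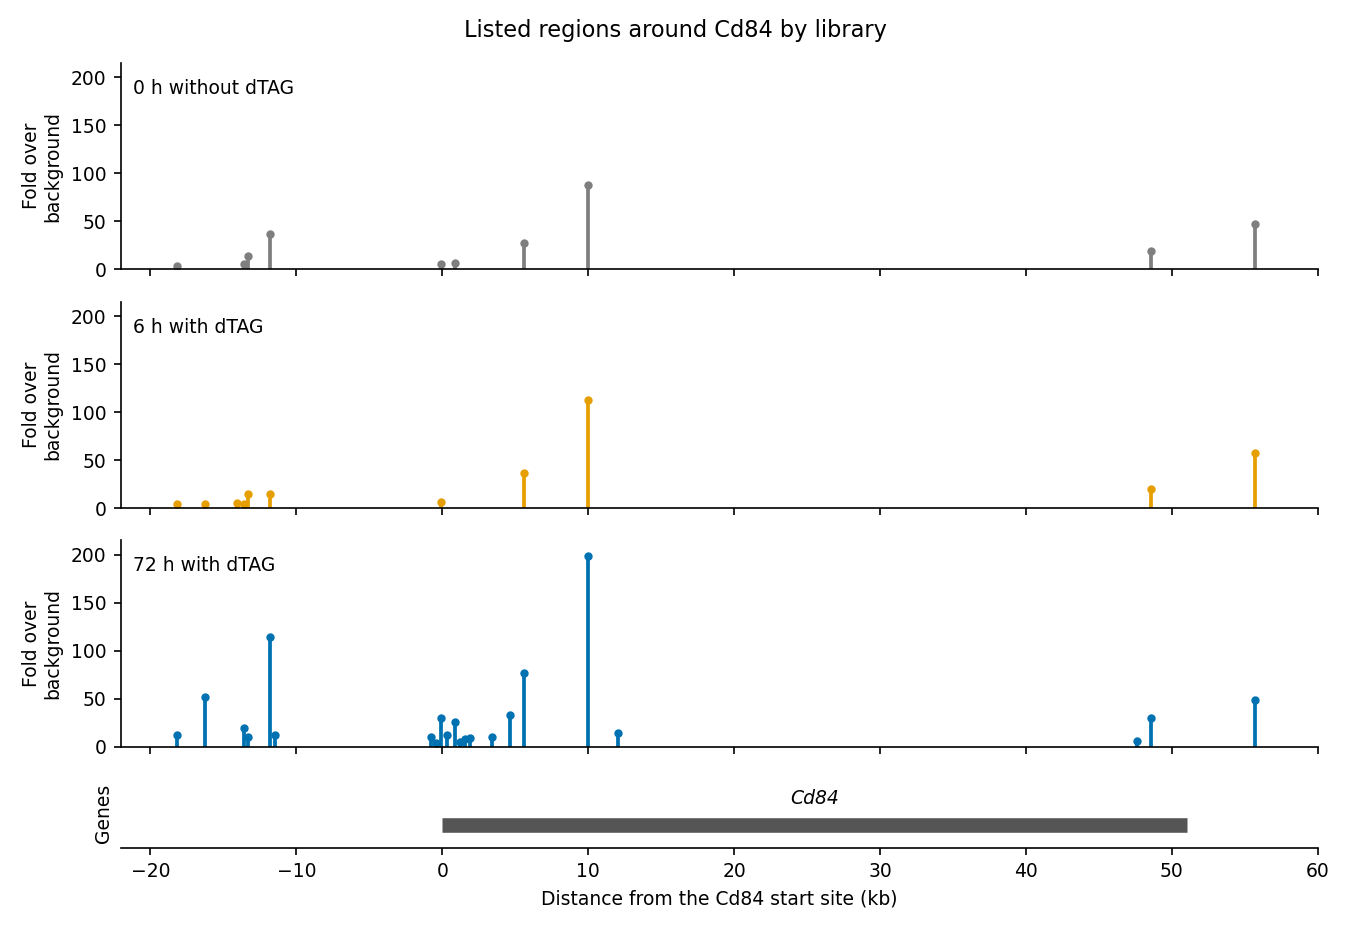
Listed loci around Cd84, with the distance of the locus centre from the Cd84 start site in kb (x axis) and the highest fold of the locus over the background of its own library (y axis), for 0 h, 6 h and 72 h from top to bottom. At 72 h the start of the gene holds a row of loci with folds from 3.90 to 32.8 where 0 h and 6 h have 2 and 1, and the tallest locus inside the gene reads 88.4 (0 h), 112 (6 h) and 199 (72 h).

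Upstream of Cd84, the locus at chr1:171823265-171823577 was not listed at 0 h, had a fold of 3.77 at 6 h and one of 51.5 at 72 h. It was the highest of all gained regions in the cluster. The locus at chr1:171827735-171828049, centred at −11.8 kb from the start site, had a fold of 37.0 (0 h), 15.1 (6 h) and 114 (72 h), and a rank of 81.0, 51.1 and 94.5. Its rank at 6 h was thus below that of 0 h, and at 72 h above both. The locus at chr1:171826064-171826183 had a fold of 5.29, 4.52 and 19.5, with a rank of 11.4, 5.13 and 59.2.

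Inside Cd84 the highest locus of the whole cluster lay 9.96 kb after the start site at chr1:171849434-171849879, with a fold of 88.4 (0 h), 112 (6 h) and 199 (72 h). It was near the top of each library, at a rank of 94.9, 95.7 and 99.0. A broad locus 5.61 kb after the start site had a highest fold of 28.0, 36.2 and 77.3. Not all Cd84 loci had a higher rank at 72 h. That at chr1:171826289-171826509 had a fold of 14.4, 14.3 and 10.1, and that at chr1:171895330-171895526, past the end of the gene, 46.9, 57.3 and 49.2, with rank differences between 72 h and 0 h of −13.9 and −3.97. Of the 9 ranked Cd84 loci, 7 had a higher rank at 72 h than at 0 h. By at least 20 points 3 stood higher, beside 16.3% of all ranked loci. The median difference of the 9 was 13.5 points, against −0.917 over all ranked loci.

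Ly9, a self-binding receptor mainly of lymphocytes, lies next to Cd244a, and 9 of the 16 loci assigned to Ly9 lay inside the span of Cd244a. At 72 h the tallest loci of Ly9 lay between it and Slamf7. The locus at chr1:171616833-171617276 had a fold of 12.9 (0 h), 27.1 (6 h) and 119 (72 h). Its rank was 47.2, 71.1 and 95.03, so it was among the 2 ranked loci of the cluster that stood at least 20 points higher at 6 h than at 0 h. Its neighbour at chr1:171619049-171619355 had a fold of 37.0, 47.5 and 127 and a rank of 81.0, 83.9 and 95.7. The locus at chr1:171607100-171607502, across an end of the Ly9 span, had a fold of 18.1, 18.1 and 26.5. Ly9 held 13, 12 and 12 regions, with a mean fold of 14.3, 15.3 and 33.2 and a median fold of 12.9, 9.80 and 15.6.

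Slamf7, an activating receptor of natural killer cells also found on activated myeloid cells, held 7 (0 h), 7 (6 h) and 9 (72 h) regions. The tallest of 72 h, at chr1:171637179-171637639 inside the gene, had a fold of 12.1 (0 h), 14.3 (6 h) and 24.2 (72 h). Of its 5 ranked loci, 4 stood higher at 72 h than at 0 h. The median difference of the 5 was 20.6 points, against −0.917 over all ranked loci. The largest differences were those of chr1:171627401-171627680 and chr1:171627938-171628275, which lie between Ly9 and Slamf7, with folds of 4.54, 6.78 and 14.1 and of 4.54, 6.78 and 13.3.

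Cd48, the ligand without a tail, held 10 (0 h), 9 (6 h) and 10 (72 h) regions, and those of 72 h covered less. The lengths in all were 1418, 1522 and 1003 bp, with a median fold of 9.45, 9.80 and 5.46. The locus at chr1:171672970-171673379, ahead of the gene, was the tallest of 6 h and 72 h, with a fold of 18.9, 36.9 and 27.3 and a rank of 61.7, 78.9 and 68.6. The region inside the gene at chr1:171699090-171699287 had a fold of 24.2, 16.6 and 7.03 and a rank of 69.9, 54.7 and 24.0. Ahead of the start site, chr1:171677796-171677973 had a fold of 16.6 at 0 h and 10.5 at 6 h and was not listed at 72 h. At the promoter, a region of fold 9.07 (0 h) and 9.80 (6 h) was not listed at 72 h, when a separate one of fold 3.90, near the lowest listed, lay across the start site. Of the 5 ranked loci, 3 stood at least 20 points lower at 72 h than at 0 h, beside 16.1% of all ranked loci. The median difference of the 5 was −21.8 points, against −0.917 over all ranked loci.

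Slamf1, also called CD150, held 6 (0 h), 5 (6 h) and 4 (72 h) regions. The region across its start site, chr1:171767041-171767182, had a fold of 3.02 (0 h), 4.52 (6 h) and 7.03 (72 h), low in every library. Its rank was 0.484, 5.13 and 24.0. The region centred at −5.01 kb, chr1:171761799-171762445, had a fold of 22.7, 19.6 and 7.03 and a rank of 67.8, 60.7 and 24.0. The tallest Slamf1 region lay past the gene on the side of Cd84, at chr1:171815836-171816097, with a fold of 55.2, 62.5 and 60.1 and a rank of 88.6, 88.5 and 85.4. Beside it, chr1:171817074-171817280 had a fold of 10.6, 9.80 and 21.9 and a rank of 39.4, 33.3 and 62.6. Of the 4 ranked loci, 2 stood at least 20 points higher at 72 h than at 0 h and 1 at least 20 points lower. The median difference of the 4 was 9.97 points.

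Slamf6, known as Ly108 and mainly a receptor of T and natural killer cells, had the fewest regions, 2 (0 h), 2 (6 h) and 1 (72 h), with folds from 6.03 to 9.07 and no region at the promoter. It lies next to Cd84, and the row of loci seen at the start of Cd84 at 72 h was not listed at this neighbour.

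**Figure D3:**
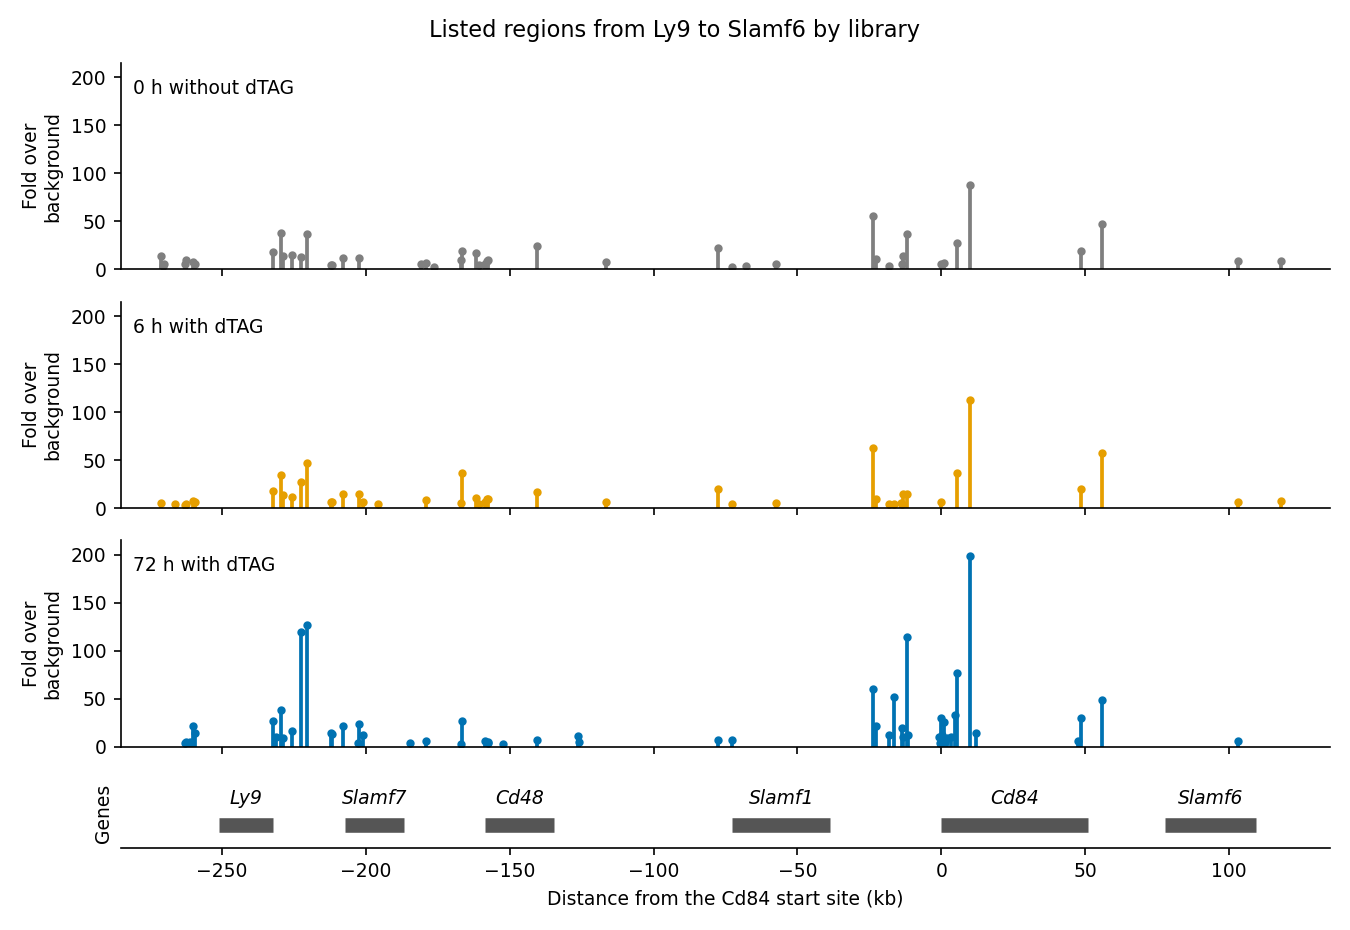
Listed loci from Ly9 to Slamf6, with the distance of the locus centre from the Cd84 start site in kb (x axis), the highest fold of the locus over the background of its own library (y axis) and the gene spans below, for 0 h, 6 h and 72 h from top to bottom. The tall loci of 72 h lie between Ly9 and Slamf7 (119 and 127) and at Cd84 (up to 199), while Cd48, Slamf1 and Slamf6 hold none above 60.1.

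Slamf9 and Slamf8, the members with short tails, lie apart from the other 6 genes. Slamf9, which is found on macrophages and plasmacytoid dendritic cells, held 17 (0 h), 20 (6 h) and 19 (72 h) regions. The region across its start site, chr1:172475180-172475517, had a fold of 29.5 (0 h), 18.1 (6 h) and 60.9 (72 h) and a rank of 75.6, 57.8 and 85.6. The locus centred at −11.8 kb, chr1:172463414-172463668, had a fold of 8.32, 5.27 and 28.1. The tallest locus assigned to Slamf9 at 0 h lay in the span of the next gene, Igsf9, at chr1:172481905-172482384, across the start site at 172482213 that the RefSeq promoter table gives. It had a lower rank at 72 h, with a fold of 65.8, 70.1 and 12.5 and a rank of 91.2, 90.2 and 44.8. Its difference of −46.4 points between 72 h and 0 h was the lowest among the 51 loci.

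Slamf8, which in mouse macrophages restrains the oxidative burst, held 6 (0 h), 4 (6 h) and 3 (72 h) regions, and none of them lay inside its span. The tallest, at chr1:172562969-172563585 in Vsig8, had a fold of 16.6, 17.3 and 19.5. The region at chr1:172594605-172594768 had a fold of 15.9, 14.3 and 7.81.

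By the tallest region of each gene, the order at 0 h was Cd84 (fold 88.4), Slamf9 (65.8), Slamf1 (55.2), Ly9 (37.8), Cd48 (24.2), Slamf8 (16.6), Slamf7 (12.1) and Slamf6 (9.07). At 72 h it was Cd84 (199), Ly9 (127), Slamf9 (60.9), Slamf1 (60.1), Cd48 (27.3), Slamf7 (24.2), Slamf8 (19.5) and Slamf6 (6.25). Without replicates no neighbours in these orders can be told apart by their spread. The Slamf9 value at 0 h was that of the locus across the Igsf9 start site. At 72 h it was that of the region across the Slamf9 start site, which had a fold of 29.5 at 0 h.

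The windows of the 8 genes held 100 loci in all. Of these, 51 were listed in all 3 libraries, 22 at 72 h alone, 11 at 0 h and 6 h but not at 72 h, 7 at 0 h alone, 5 at 6 h alone, 3 at 6 h and 72 h and 1 at 0 h and 72 h. Over all loci of the 3 lists, 41.3% were listed in all, 10.0% at 72 h alone, 15.1% at 0 h and 6 h but not at 72 h, 15.1% at 0 h alone, 12.2% at 6 h alone, 3.74% at 6 h and 72 h and 2.51% at 0 h and 72 h. Of the 22 loci listed at 72 h alone, 11 lay at Cd84.

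Among the 51 ranked loci, 14 stood at least 20 points higher at 72 h than at 0 h, or 27.5% (15.9 to 41.7), beside 16.3% of all ranked loci. In the other direction 7 stood at least 20 points lower, or 13.7% (5.70 to 26.3), beside 16.1%. By nearest gene the 14 were spread over Ly9, Slamf7, Cd84 and Slamf9 with 3 each and Slamf1 with 2. Of the 3 counted for Ly9, those at chr1:171579595-171579893 and chr1:171580180-171580315 lay inside the span of Cd244a. The 7 were spread over Cd48 with 3 and Ly9, Slamf1, Slamf9 and Slamf8 with 1 each. The median difference was 6.88 points, against −0.917 over all ranked loci.

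**Figure D4:**
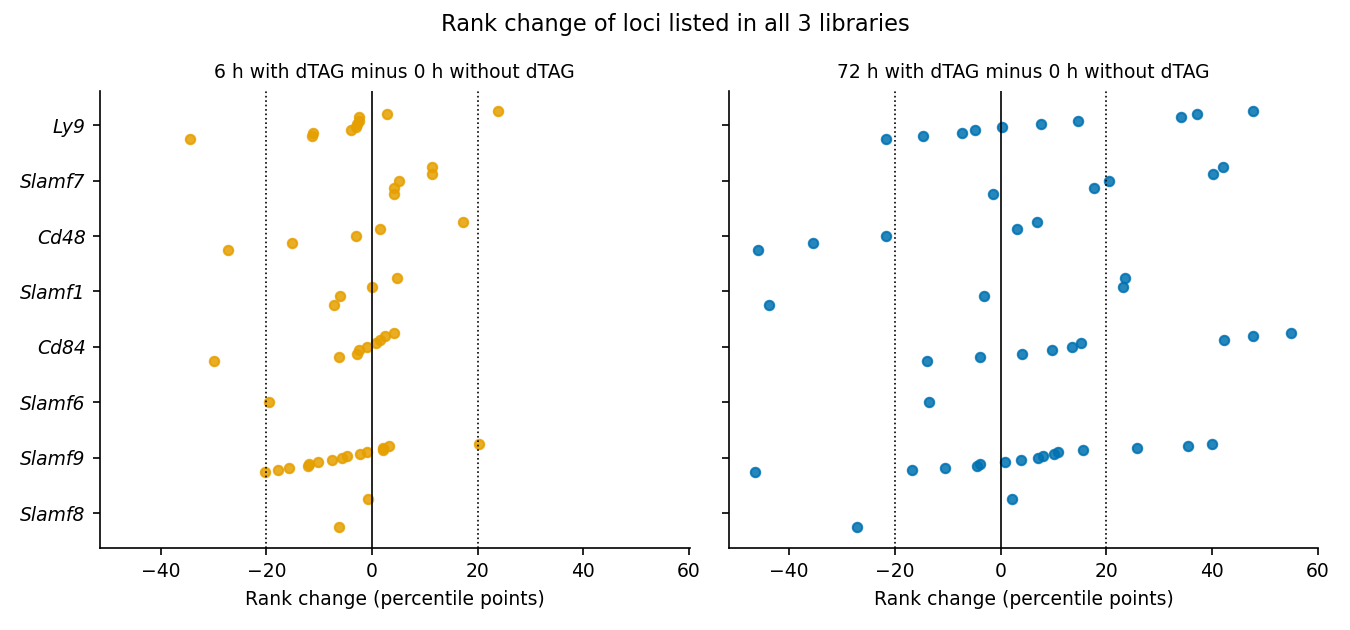
Difference in rank (x axis, percentile points) of the 51 loci listed in all 3 libraries, by nearest gene (rows), for 6 h minus 0 h and 72 h minus 0 h. Each point is 1 locus and dotted lines stand at 20 points in either direction. At 6 h 2 points lie above and 4 below these lines, and at 72 h 14 and 7.

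The library of 6 h differed from that of 0 h at fewer regions of the cluster than the library of 72 h did, a difference that was not tested. The 8 genes had 71 regions at 6 h and 72 regions at 0 h, a ratio of 0.986 (0.7004 to 1.39), beside 0.981 within 20 kb of any coding gene. They covered 13.3 kb and 13.1 kb. Of the 8 genes, 2 (Cd84 and Slamf9) held more regions, 4 fewer and 2 the same number, beside 35.9% of gene windows with more and 43.5% with fewer. Of the 71 regions, 8 were gained, or 11.3% (4.99 to 21), beside 21.8% over the list, and of the 72 at 0 h 8 were lost, or 11.1% (4.92 to 20.7), beside 23.4%. The share of strong regions was 65.3% (0 h), 52.1% (6 h) and 63.8% (72 h) in the cluster and 54.0%, 52.1% and 52.4% in the whole lists.

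Of the strong regions, 0 of 37 at 6 h were gained (0 to 9.49%), beside 1.71%, and 1 of 47 at 0 h was lost, or 2.13% (0.0539 to 11.3), beside 2.48%. The lost one lay 0.88 kb after the Cd84 start site (chr1:171840500-171840661). It had a fold of 6.80 (0 h), was not listed at 6 h and had a fold of 25.8 (72 h). In rank, 2 of the 51 loci stood at least 20 points higher at 6 h than at 0 h, beside 4.21% of all ranked loci, and 4 at least 20 points lower, beside 4.45%. The comparison of 72 h with 6 h shares its libraries with those above. It uses the 72 h list by which the cluster was in part chosen, so it too supports nothing by itself. It gave 23 of 80 regions gained, or 28.8% (19.2 to 40.0), beside 20.8% over the list, and 16 of 71 lost, or 22.5% (13.5 to 34.0), beside 37.2%, with 12 of the 23 at Cd84.

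Of 20 genes of receptors, adaptors, kinases, phosphatases and partners in SLAM signalling, the number at 72 h exceeded that at 0 h in 9 windows, fell short of it in 9 and equalled it in 2, with 399 regions at 72 h and 388 at 0 h. Over the coding genes, 22.4% of windows had more and 65.7% fewer, and the ratio of regions was 0.839. That ratio counts each region once, while the totals of the 20 genes count a region for each window that holds it. Of 14 with a promoter window, 10 had a region there at each of the 3 times. The largest differences were those of the Src-family kinases Lyn, with 31 (0 h), 34 (6 h) and 56 (72 h) regions, Fyn, the kinase that binds SAP, with 28, 30 and 17, and Fgr with 24, 23 and 17. The surplus of 25 regions at Lyn was larger than that of all 20 genes together. Among the adaptors, Sh2d1b1 held 6, 7 and 9 regions and Sh2d1a 2, 2 and 1. Inpp5d, the lipid phosphatase SHIP1, held 32, 32 and 36.

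The coding genes more than 1 Mb away whose pattern came closest to that of Cd84 were Tlr13, Ltf, Clec4n, Dnajc5 and Fpr1. Likeness was the distance between log2 region counts and log2 covered lengths over the 3 libraries, and it was 0.40, 0.41, 0.42, 0.47 and 0.47 for these 5. Tlr13 held 13 (0 h), 15 (6 h) and 23 (72 h) regions and covered 2225, 2630 and 5280 bp. Ltf, the gene of lactoferrin, held 14, 12 and 21, and Fpr1, a formyl peptide receptor, 14, 13 and 20. With 3 libraries this likeness is a coarse description.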

How the data were processed

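ATAC-seq libraries of 3 groups, 1 each, were used as deposited peak lists, called per library. The submitters' processing notes name BWA 0.7.17, MACS2 2.2.7, bedtools 2.30.0 and build mm10. For options, duplicate treatment and read shifting the sources used here give nothing. Each line of the authors' deposited files holds a position, a fold (ratio of summit to background), a −log10 p-value and a −log10 q-value, a display score and the summit offset. Listed −log10 q values began at 1.45 (0 h), 1.44 (6 h) and 1.64 (72 h). Strong regions lay at or above the median of their list, a −log10 q of 7.82, 9.25 and 13.0. Regions of 2 lists were matched at 1 bp of overlap. Folds fell within 0.02 of a grid step in 100% of lines. Gene spans and promoters came from RefSeq tables of GRCm38.p6. No genome was used, so regions carry no sequence here.

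Analyses used Python 3.11.15, pandas 2.3.3, numpy 2.4.6 and scipy 1.17.1, and overlap calls and ranks were tested on simulated data. Shares have exact 95% Clopper-Pearson intervals. The 8 members and all gene lists were chosen with earlier results of these data known. All 8 members are named. Among other pathway genes those with the largest difference in regions, plus Sh2d1a, Sh2d1b1 and Inpp5d, chosen after their values were seen, are named. Ranking of common loci and its threshold of 20 points were added after the data were seen. Alternatives were flanks, list length, strength minimums, merging, overlap, gene assignment and rank threshold. Regions of overlapping gene windows count for each gene in the marker and pathway lists.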

Additional observations from a re-analysis of the deposited data

How the results depend on the processing

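Of 88 recomputed values 73 stayed within the interval of the reported value or, for counts, within 1.5 times of it. The ratio of regions between 72 h and 0 h ranged from 0.964 to 1.5 over 7 alternatives. It was 1.21 with lists of equal length and 1.02 with regions under 200 bp apart merged, so a surplus in number was not seen under each. Over 8 alternatives the share gained at 72 h against 0 h ranged from 24.1% to 47.9%, and the share lost from 17.4% to 29.3%. With a 50 kb flank 24.1% were gained, beside 22.8% over the whole list, and 28.3% lost. With regions under 200 bp apart merged, 26.2% were gained and 26.6% lost. Cd84 regions of 72 h were among those merged. The list shares and the coding ratio after merging are not given here, so those above cannot stand beside the merged values. With a fold of at least 10 in every list, the share of cluster regions gained was 47.9% at 72 h against 0 h, 0% at 6 h against 0 h and 47.9% at 72 h against 6 h, and the ratio between 72 h and 6 h was 1.60. With a −log10 q of at least 10 these shares were 44.2%, 2.94% and 46.2%. A locus whose value crosses such a minimum counts as gained in these settings. Shares of the whole lists at these minimums are not given here, so the list shares above cannot stand beside these values. With rank thresholds of 10 and 30 points, loci lower at 72 h numbered 12 and 4 of 51 (29.1% and 7.99% of all ranked loci) in place of 7, those higher at 6 h 5 and 0 (15.5% and 0.980%) in place of 2, and those lower at 6 h 13 and 1 (15.7% and 1.0002%) in place of 4. Loci higher at 72 h numbered 21 and 10 (26.96% and 9.05%) in place of 14. Counting each region for every window that holds it, the difference between 72 h and 0 h was 0 for Ly9 and −1 for Cd48. No paired analysis was possible because each group held 1 library, and for the same reason no library could be left out. Read depth was not used, and regions near the lowest listed fold can be missed in a list.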

Other observations

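The 470 kb between the windows of Slamf6 and Slamf9 had 81, 88 and 80 regions (0 h, 6 h and 72 h), which covered 16072, 16613 and 15206 bp. Of the 80 regions there at 72 h, 20 were gained against 0 h, beside 22.8% over the whole list. Of the 81 at 0 h, 25 were lost at 72 h, beside 40.2%. The gap between the windows of Cd48 and Slamf1 had 2, 1 and 0 regions. Cd244a, the receptor of Cd48, had 26, 25 and 21 regions in its window, part of which it shares with Ly9. The highest region of that window had a fold of 110, 111 and 223, and its promoter was listed at each time.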
